A study of Mus musculus with 26 samples.

Results

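Transcripts of the solute carrier families Slc2a, Slc5a, Slc28a and Slc29a were measured in pieces of the proximal small intestine (SI). The families were taken by gene symbol, as every gene named Slc2a, Slc5a, Slc28a or Slc29a followed by digits alone, and 30 of the 55487 genes in the count table met this rule. They comprised 12 Slc2a, 11 Slc5a, 3 Slc28a and 4 Slc29a genes. The mice were 8 to 12 weeks old, on a C57BL/6N background and fed chow. Knockout mice were homozygous for a loxP-flanked gene and carried Villin-creERT2, a tamoxifen-activated Cre recombinase that the villin promoter drives in intestinal epithelial cells (IECs). Control mice were littermates with the loxP-flanked alleles and without the Cre transgene. Both genotypes received 5 daily injections of tamoxifen, and tissue was taken 3 days after the last injection (7 knockout and 7 control mice) or 7 days after it (6 and 6), with 1 library per mouse. The deletion is restricted to IECs, whereas a piece of tissue also holds lamina propria, vessels, nerves and muscle, so each value averages over cells that can and cannot carry the deletion.

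Slc2a genes encode facilitative carriers that let hexoses pass down their gradient, and Slc5a genes encode carriers that couple uptake to the sodium gradient kept by the sodium pump. In the SI, dietary disaccharides are split at the brush border of enterocytes, glucose and galactose enter with sodium, fructose enters through its own facilitative carrier, and hexoses leave the cell on the basolateral side. Slc28a carriers bring nucleosides into the cell together with sodium, and Slc29a carriers let nucleosides equilibrate across membranes. The gene families are wider than sugars and nucleosides. Slc5a5 encodes an iodide carrier, Slc5a6 a carrier of biotin and pantothenate, Slc5a7 a choline carrier, Slc5a8 and Slc5a12 carriers of lactate and other monocarboxylates, Slc5a3 and Slc5a11 carriers of myo-inositol, Slc2a13 a proton-coupled carrier of myo-inositol, Slc2a9 a urate carrier and Slc29a4 a carrier of monoamines.

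Levels are given as CPM, the count of a gene scaled to the total count of its library. The library totals lay between 3720168 and 6338016 counts. A floor of 3 counts corresponded to between 0.473 and 0.806 CPM, and floors and intervals of summed counts cover counting error only. All 8 epithelial markers were detected in every group. Their summed level lay between 1648 and 3834 CPM in control mice and between 1144 and 3491 CPM in knockout mice at 3 days. At 7 days it lay between 4957 and 6978 CPM in control mice and between 2900 and 3411 CPM in knockout mice, with no overlap. Within this list the median of Anpep, an enterocyte peptidase, was 1230 CPM in control and 106 CPM in knockout mice at 7 days, while that of Cdh1, the epithelial cadherin, was 823 and 803 CPM. The 8 immune markers, of which Jchain contributed most, summed to between 539 and 1294 CPM in control and between 256 and 487 CPM in knockout mice at 7 days, and the 4 endothelial markers to between 59.0 and 89.6 CPM and between 119 and 188 CPM. The 6 smooth muscle markers overlapped between genotypes at 7 days (579 to 1037 and 663 to 968 CPM). Stomach markers exceeded 10000 CPM in knockout replicate 1 and control replicate 5 of day 3 and in control replicate 2 of day 7, and pancreatic acinar markers exceeded it in knockout replicate 2 and control replicates 2 and 3 of day 3 and in knockout replicate 4 of day 7. In whole tissue, fewer cells of a type and less RNA per cell cannot be told apart.

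**Figure D1:**
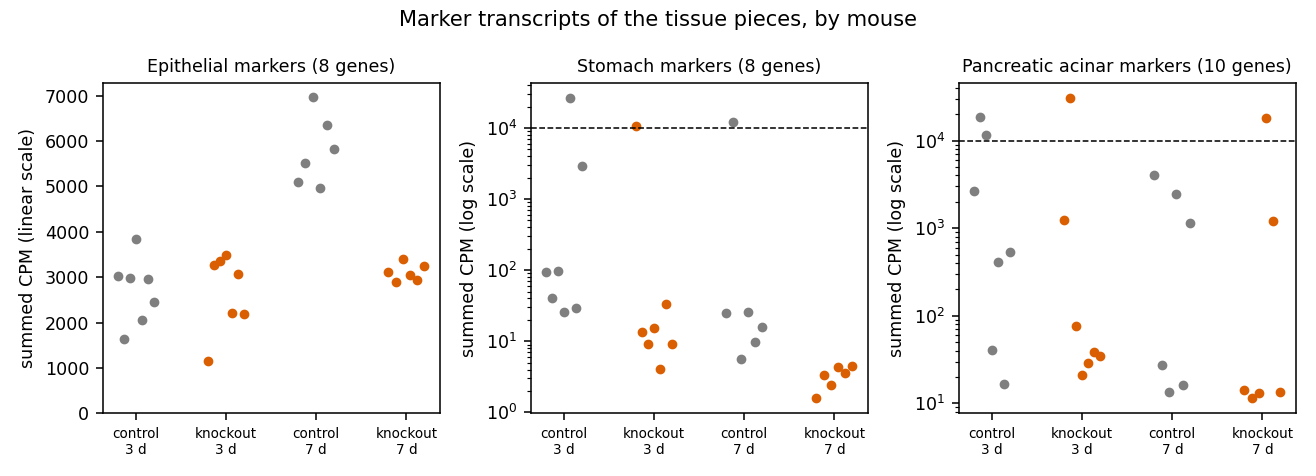
Summed CPM of the epithelial markers (linear axis) and of the stomach and pancreatic acinar markers (log axes) in each of the 26 libraries, with 1 point per mouse, control in grey and knockout in orange. The epithelial sums of the genotypes overlap at 3 days and are apart at 7 days, and the dashed lines at 10000 CPM separate the libraries rich in stomach or pancreatic transcripts.

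The first comparison asked whether the carriers differed between the genotypes 3 days after tamoxifen. Of the 30 genes, 29 were tested and Slc5a8 was left out by the filter on low counts. Slc2a1 rose, 0 genes fell, and 28 did not pass the threshold (edgeR's quasi-likelihood test, Benjamini-Hochberg adjusted p under 0.05 over 20760 genes). Over all genes tested, 1.11% were called higher and 0.323% lower. The median log2 fold change was 0.06 over the 29 carriers and -0.03 over all genes. Slc2a1, Slc28a2, Slc2a5, Slc29a3 and Slc28a1 had an unadjusted p under 0.05 in edgeR's test. A share of all genes at that cut-off is not at hand, so nothing is read from their number. The Wald test of DESeq2 called 3, Slc2a1 and Slc28a2 higher and Slc29a3 lower, beside 536 higher and 250 lower over all genes.

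At 7 days, of 28 tested carriers, 5 rose (Slc2a1, Slc5a3, Slc2a12, Slc28a2 and Slc29a2) and 11 fell (Slc5a12, Slc5a11, Slc28a1, Slc28a3, Slc2a7, Slc2a9, Slc5a1, Slc5a9, Slc2a2, Slc5a6 and Slc2a5). Here and below, carriers that rose or fell at 7 days did so against control mice of that day. Slc5a5 and Slc5a8 were left out by the filter. Over the 20259 genes tested at this day, 19.7% were called higher and 18.8% lower. The median log2 fold change was -0.60 over the 28 carriers and -0.02 over all genes. By family, 4 of 12 Slc2a genes, 5 of 9 Slc5a genes and 2 of 3 Slc28a genes fell, and 2 Slc2a genes and 1 gene of each other family rose.

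Whether the effect of the knockout differed between the days was tested as the interaction of genotype and day in all 26 libraries. It passed the threshold for 12 of 28 carriers, upwards for Slc2a1, Slc5a3 and Slc2a12 and downwards for Slc5a12, Slc5a11, Slc28a1, Slc28a3, Slc2a7, Slc5a1, Slc2a5, Slc5a9 and Slc2a9. Over 19604 genes the background was 8.64% upwards and 9.74% downwards. Slc2a2 (adjusted p = 0.142, edgeR), Slc5a6 (0.0564), Slc28a2 (0.407) and Slc29a2 (0.537) were called at 7 days, and for them a difference from day 3 was not shown.

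**Figure D2:**
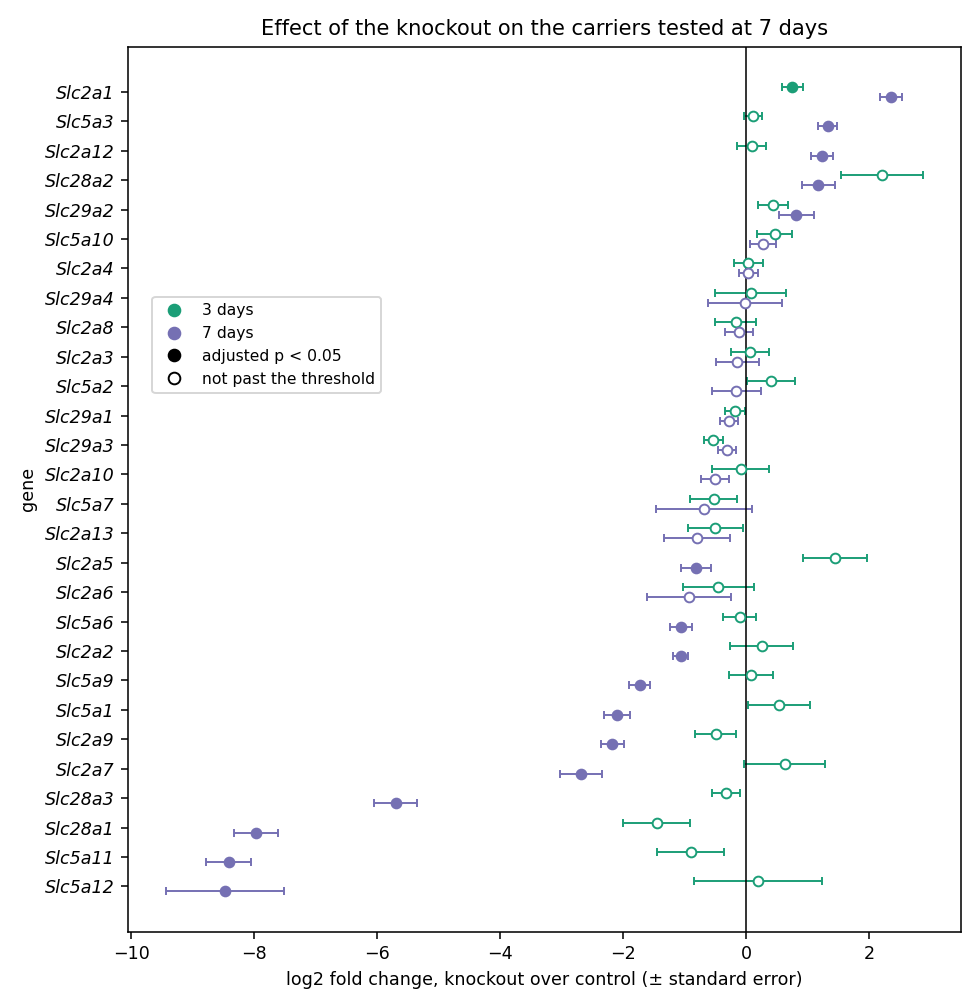
Log2 fold change of knockout over control (x axis) with its standard error for the 28 carriers tested at 7 days, at 3 days in green and at 7 days in violet, where filled points passed an adjusted p of 0.05. Of the green points only Slc2a1 is filled, whereas 5 violet points are filled to the right of zero and 11 to the left. Fitted values beyond -5 rest on knockout groups with few counts and depend on the prior count of the fit.

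Slc5a1 encodes the sodium-coupled carrier through which enterocytes take up glucose and galactose (chromosome 5, 33104219 to 33162870 of GRCm38). At 7 days its level in control mice had a lowest value of 1826, a median of 2018 and a highest value of 3809 CPM, against 427, 554 and 776 CPM in knockout mice. The groups did not overlap, and the lowest control mouse was above the highest knockout mouse. The log2 fold change was -2.10 ± 0.21 (SE), a 4.28-fold lower level (adjusted p = 2.7e-07, edgeR). At 3 days the groups overlapped, with 124, 812 and 1658 CPM in control and 88.7, 1173 and 1484 CPM in knockout mice, and the log2 fold change was 0.53 ± 0.51 (adjusted p = 0.709). The lowest mouse of each genotype at that day was the one whose library held the most stomach transcripts. Between the days, the effect differed by -2.61 ± 0.63 (adjusted p = 0.00336).

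Slc2a2, through which glucose, galactose and fructose leave enterocytes (chromosome 3, 28697903 to 28731359) was 2.09-fold lower at 7 days (log2 fold change -1.07 ± 0.13, adjusted p = 1.7e-06, edgeR). Control mice lay at 649, 768 and 913 CPM (lowest, median and highest) and knockout mice at 292, 362 and 450 CPM. The genotypes were apart at this day, and the separation was smaller than for Slc5a1. At 3 days both genotypes spread widely, from 31.7 to 432 CPM in control and from 22.7 to 459 CPM in knockout mice. The all-library fit, in which the more variable mice of day 3 share the estimate of the spread, gave the same change of -1.06 for day 7 without passing the threshold (adjusted p = 0.0690).

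Slc2a5, the fructose carrier of the brush border (chromosome 4, 150119283 to 150144169), fell at 7 days by 0.82 ± 0.24 on the log2 scale (adjusted p = 0.0108, edgeR), from 230, 287 and 354 CPM in control mice to 81.3, 149 and 300.4 CPM in knockout mice. One knockout mouse, replicate 5 with 300.4 CPM, lay inside the control range, so the groups overlapped. In the all-library fit the change was -0.81 and did not pass (adjusted p = 0.203). The estimate pointed the other way at 3 days, with 22.6, 102 and 159 CPM in control and 12.2, 214 and 448 CPM in knockout mice (log2 fold change 1.45 ± 0.53, adjusted p = 0.212). Without the 2 libraries of that day rich in stomach transcripts this change was 1.49 and passed (adjusted p = 0.0133). This setting was chosen after seeing the data, and calls over all genes also went up in it, from 297 to 774. Of the 3 classical sugar carriers of the enterocyte, Slc2a5 and Slc5a1 had an effect that differed between the days, by -2.25 ± 0.65 for Slc2a5 (adjusted p = 0.0140).

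Slc5a9, a sodium-coupled carrier with a preference for mannose and related sugars (chromosome 4, 111875375 to 111902918), fell 3.32-fold at 7 days. Its levels were 22.3, 26.9 and 39.4 CPM in control mice and 7.25, 8.46 and 10.9 CPM in knockout mice, without overlap (log2 fold change -1.73 ± 0.17, adjusted p = 2.1e-07, edgeR). The urate carrier Slc2a9 (chromosome 5, 38349273 to 38503143) went from 45.6, 54.6 and 79.9 CPM to 8.88, 13.6 and 15.8 CPM, also without overlap (-2.18 ± 0.18, adjusted p = 2.3e-08). At 3 days both were below the threshold, with log2 fold changes of 0.08 ± 0.36 for Slc5a9 and -0.50 ± 0.34 for Slc2a9.

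Slc2a7, a carrier of the SI next to Slc2a5 on the chromosome (150148972 to 150168482 of chromosome 4), had few counts. Over all 6 mice of day 7 it had 98 counts in controls and 15 in knockout mice, a ratio of 6.80 (exact 95% interval 3.93 to 12.6, counting error only). In single mice, between 2.17 and 3.85 CPM in controls stood against 0.180 to 0.823 CPM in knockout mice, and the groups did not overlap. The fitted log2 fold change was -2.68 ± 0.34 (adjusted p = 4.4e-06, edgeR), against 0.63 ± 0.65 at 3 days (adjusted p = 0.741).

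**Figure D3:**
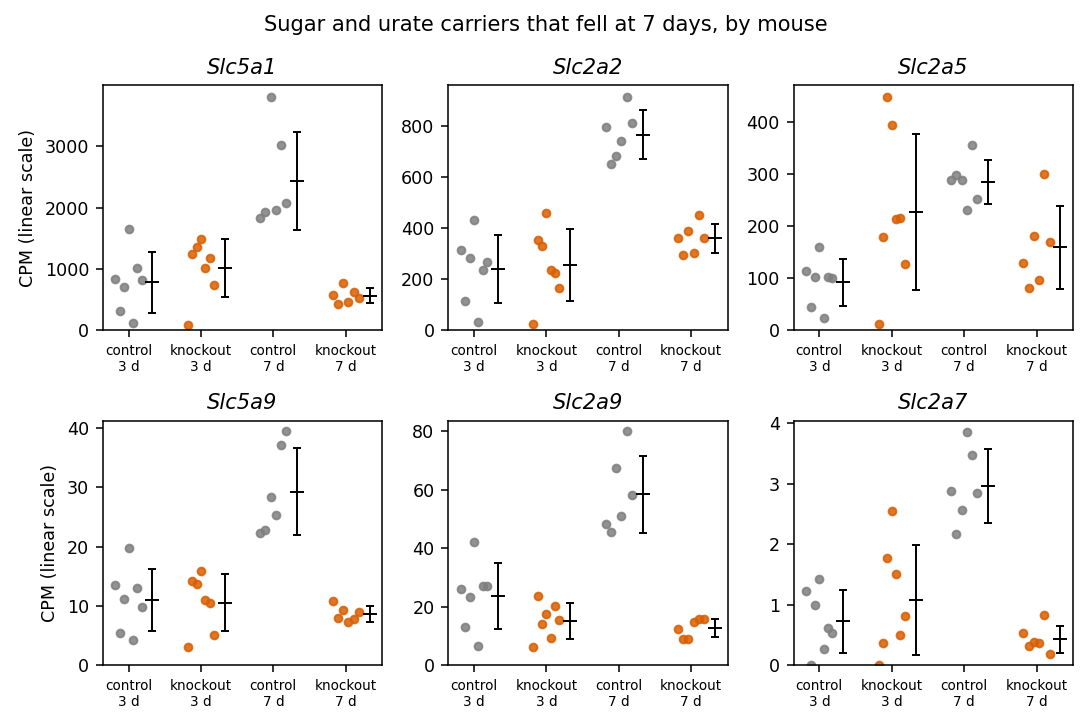
CPM (linear axes) of the sugar and urate carriers that fell at 7 days, by group, with 1 point per mouse in the order of the replicates and the mean with its SD beside them. At 7 days every knockout mouse (orange) lies below every control mouse (grey) for Slc5a1, Slc2a2, Slc5a9, Slc2a9 and Slc2a7, while 1 knockout mouse lies in the control range for Slc2a5; at 3 days the genotypes overlap for all of them.

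Slc2a1, a glucose carrier found in most cells and the one through which many take up their basal glucose, moved the other way (chromosome 4, 119108711 to 119137983). At 3 days it had 7.17, 11.0 and 12.9 CPM in control and 11.8, 14.9 and 23.0 CPM in knockout mice. The highest control mouse was above the lowest knockout mice, so the ranges touched. The log2 fold change was 0.75 ± 0.18 (adjusted p = 0.0413, edgeR). It stayed between 0.68 and 0.83 with each of the 14 mice left out in turn, but the call held only without knockout replicates 1 and 6 and control replicate 5 and was lost in the other 11 fits, with an adjusted p of 0.101 without knockout replicate 4. At 7 days, 28.7, 49.2 and 61.7 CPM in knockout mice stood against 7.26, 8.69 and 15.0 CPM in control mice. The genotypes no longer overlapped, the level was 5.12-fold higher (2.36 ± 0.18, adjusted p = 8.7e-09), and the effect had grown by 1.62 ± 0.26 since day 3 (adjusted p = 4.8e-05).

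Slc2a12, another facilitative glucose carrier, and Slc5a3, a myo-inositol carrier, rose at 7 days, while at 3 days their log2 fold changes were 0.09 ± 0.23 and 0.11 ± 0.14 and did not pass. Slc2a12 (chromosome 10, 22645011 to 22704285) lay at 4.06, 5.58 and 7.02 CPM in control and at 9.63, 13.7 and 15.2 CPM in knockout mice at 7 days (1.23 ± 0.18, adjusted p = 1.8e-05, edgeR). Its exons overlap those of Tbpl1 on the other strand, and its count was not whole in 65.4% of the libraries. The share of its reads that were divided between genes cannot be read from this. For Slc5a3 (chromosome 16, 92058322 to 92087473) the levels were 10.1, 17.2 and 26.7 CPM in control and 37.7, 40.9 and 50.1 CPM in knockout mice (1.33 ± 0.15, adjusted p = 1.5e-06). Neither gene overlapped between the genotypes at 7 days. Slc5a3 shares exon sequence on the same strand with Mrps6, and reads there cannot be assigned to one of them. In control mice Slc5a3 was lower at 7 than at 3 days (-0.59 ± 0.18, adjusted p = 0.0162), and the level of knockout mice at 7 days, 42.9 ± 5.2 CPM (SD, n = 6), stood beside 33.7 ± 6.9 CPM (SD, n = 7) in control mice of day 3.

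The second inositol carrier went the opposite way to Slc5a3. Slc5a11, which takes up myo-inositol with sodium (chromosome 7, 123214780 to 123273253), had 56.0, 68.6 and 126 CPM in control mice at 7 days and between 0 and 0.350 CPM in knockout mice, 2 of which had 0 counts. No knockout library reached the floor of 3 counts. The summed counts were 2562 in control and 7 in knockout mice, a ratio of 381 (exact 95% interval 185 to 949, counting error only), and the fit called it lower (adjusted p = 5.4e-12, edgeR). At 3 days the ranges overlapped, from 0.538 to 52.7 CPM in control and from 1.68 to 17.5 CPM in knockout mice (log2 fold change -0.90 ± 0.54, adjusted p = 0.509).

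Slc5a12, a sodium-coupled monocarboxylate carrier (chromosome 2, 110597298 to 110647779), varied widely among control mice. Controls ranged from 5.76 to 264 CPM with a median of 140.5 CPM, and knockout mice from 0 to 1.43 CPM, with 0 counts in 3 of them. The ranges did not meet, and the summed counts, 4831 and 13, gave a ratio of 387 (exact 95% interval 226 to 727, counting error only; adjusted p = 1.1e-06 in edgeR's fit). At 3 days control mice lay between 0 and 87.8 CPM and knockout mice between 0 and 47.5 CPM (log2 fold change 0.19 ± 1.04). The vitamin carrier Slc5a6 (chromosome 5, 31036036 to 31048924) fell 2.09-fold at 7 days, from 17.3, 19.7 and 30.1 CPM to 6.48, 9.85 and 14.0 CPM (-1.06 ± 0.18, adjusted p = 9.8e-05), without overlap. Its exons overlap those of Atraid on the other strand, and the counting states no strand.

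**Figure D4:**
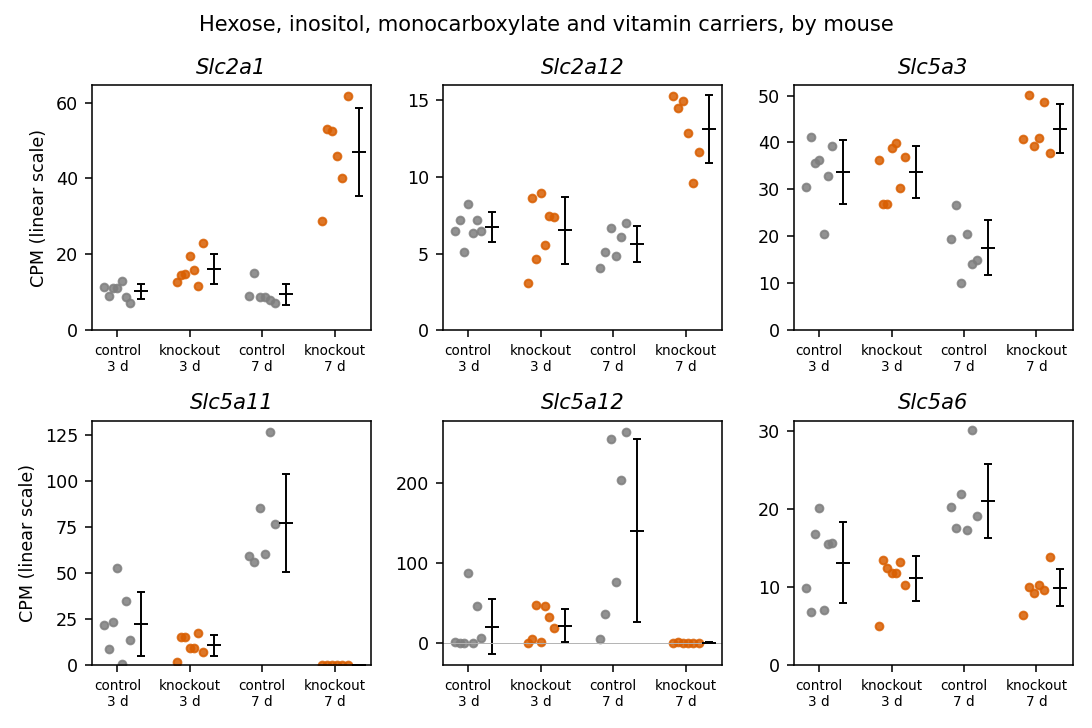
CPM (linear axes) of Slc2a1, Slc2a12, Slc5a3, Slc5a11, Slc5a12 and Slc5a6 by group, with 1 point per mouse and the mean with its SD beside the points. Knockout mice (orange) at 7 days lie above all control mice (grey) of that day in the upper row and below all of them in the lower row, where Slc5a11 and Slc5a12 have at most 1.43 CPM.

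The 3 concentrative nucleoside carriers did not move together. Slc28a1, which prefers pyrimidine nucleosides (chromosome 7, 81114799 to 81170416), had 67.1, 81.7 and 145 CPM in control mice and 0, 0.181 and 1.15 CPM in knockout mice at 7 days. Every knockout mouse was far below every control mouse, with 12 against 3141 summed counts, a ratio of 272 (exact 95% interval 156 to 528, counting error only; adjusted p = 6.8e-12 in edgeR's fit). At 3 days the ranges, 2.42 to 64.9 CPM in control and 0.841 to 15.7 CPM in knockout mice, overlapped (-1.46 ± 0.55, adjusted p = 0.228). Without the libraries rich in stomach transcripts the change was -1.45 (adjusted p = 0.0426), and without those rich in stomach or pancreatic transcripts it was -1.95 (adjusted p = 0.00442). Both settings were chosen after seeing the data, and calls over all genes went from 297 to 774 and 349.

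Slc28a3, which accepts purine and pyrimidine nucleosides (chromosome 13, 58545399 to 58610877), was at 6.94, 10.6 and 12.5 CPM in control mice at 7 days, and at most 0.329 CPM, or 2 counts, in knockout mice. The summed counts were 338 and 6, a ratio of 58.6 (exact 95% interval 26.7 to 161, counting error only; adjusted p = 3.8e-10 in edgeR's fit). At 3 days the levels were 8.56, 10.8 and 16.9 CPM in control and 4.92, 8.90 and 13.0 CPM in knockout mice, with a log2 fold change of -0.33 ± 0.23 (adjusted p = 0.573). Unlike Slc28a1, Slc28a3 passed no threshold between control mice of 3 and 7 days (0.18 ± 0.19, adjusted p = 0.490).

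Slc28a2, which prefers purine nucleosides (chromosome 2, 122426477 to 122461137), rose at 7 days by 1.17 ± 0.26 on the log2 scale (adjusted p = 0.00147, edgeR). Control mice had 16.0, 23.8 and 51.8 CPM and knockout mice 31.5, 69.3 and 82.3 CPM, and the groups overlapped through knockout replicate 2 and the highest controls. In the all-library fit the change was 1.18 and did not pass (adjusted p = 0.0799). At 3 days the estimate was 2.21 ± 0.66 (adjusted p = 0.125), with 1.33, 3.29 and 14.0 CPM in control and 0.631, 13.8 and 50.1 CPM in knockout mice. The lowest knockout value was that of replicate 1, the library rich in stomach transcripts, and without this mouse the change was 2.42 (adjusted p = 0.0208), as it was 1.66 for Slc2a5 (0.0194) and -0.58 for Slc29a3 (0.0499). Calls over all genes also went up without this mouse, from 297 to 779.

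Among the equilibrative carriers, Slc29a2 (chromosome 19, 5023860 to 5031972) rose at 7 days, with 0.962, 2.65 and 4.99 CPM in control and 3.96, 4.46 and 6.84 CPM in knockout mice (0.81 ± 0.28, adjusted p = 0.0296, edgeR). The ranges overlapped, and the call was lost in 6 of the 12 fits that left out 1 mouse (knockout replicates 5 and 6 and control replicates 3, 4, 5 and 6), with a log2 fold change of 0.60 and an adjusted p of 0.0642 without control replicate 4. Slc29a1, a carrier of the plasma membrane with a broad range of nucleosides, did not pass at either day (-0.18 ± 0.16 and -0.28 ± 0.14). Slc29a3, a carrier of lysosomes, had 22.2, 33.3 and 44.1 CPM in control and 16.1, 23.1 and 28.8 CPM in knockout mice at 3 days (-0.53 ± 0.15, adjusted p = 0.104), and -0.31 ± 0.15 at 7 days (adjusted p = 0.108). Slc29a4 stayed at 2.12 CPM or lower in all libraries.

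**Figure D5:**
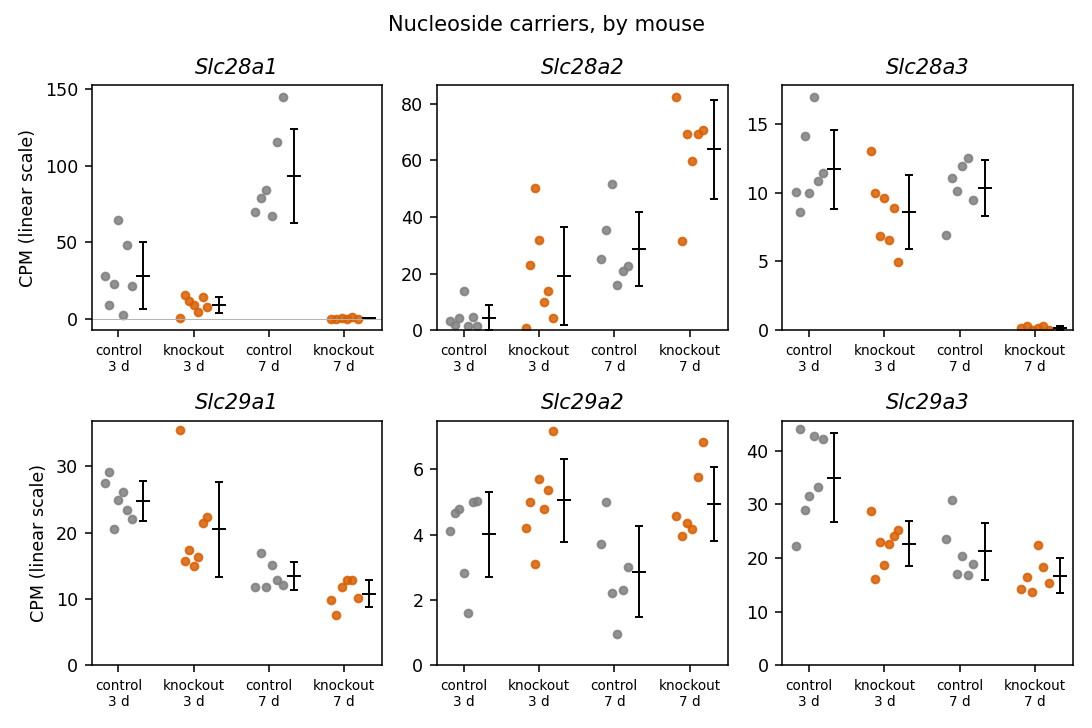
CPM (linear axes) of the concentrative (upper row) and of 3 equilibrative (lower row) nucleoside carriers by group, with 1 point per mouse and the mean with its SD beside the points. At 7 days Slc28a1 and Slc28a3 are near zero in all 6 knockout mice (orange), with at most 1.15 and 0.329 CPM, while most knockout mice lie above the controls (grey) for Slc28a2, and the genotypes overlap for the lower row.

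The other 12 tested carriers did not pass the threshold at 7 days, with log2 fold changes between -0.93 and 0.27. Besides Slc29a1, Slc29a3 and Slc29a4, these were Slc2a3, Slc2a4, Slc2a6, Slc2a8, Slc2a10, Slc2a13, Slc5a2, Slc5a7 and Slc5a10. Slc2a4, the insulin-responsive glucose carrier of muscle and fat, was at 9.30 ± 2.27 CPM in control and 9.32 ± 1.30 CPM in knockout mice (SD, n = 6 each), and the 95% interval of its log2 fold change ran from -0.27 to 0.34. Slc2a3, Slc2a8 and Slc2a10 had intervals from -0.83 to 0.53, from -0.57 to 0.33 and from -0.97 to -0.05. Slc5a10 had 3.22 ± 0.63 and 3.77 ± 0.62 CPM. Slc2a6, Slc2a13, Slc5a2 and Slc5a7 had means below 1 CPM in both groups at 7 days. Slc5a8 had 0 counts in 23 of 26 libraries.

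The epithelial marker sum was lower in knockout than in control mice at 7 days, so the carriers were also set against it, an alternative chosen after the data had been seen. With the sum of the 8 markers as library size, the median of all genes moved by 0.85 on the log2 scale. Of the 28 carriers tested, 10 were called higher and 8 lower, beside 11441 higher and 1021 lower of 20259 genes. Slc5a1 was at 413 ± 80 counts per 1000 epithelial marker counts in control and 181 ± 33 in knockout mice (SD, n = 6 each), with a log2 fold change of -1.19 on this scale (adjusted p = 2.1e-07, edgeR). Slc28a1 (-7.10), Slc5a11 (-7.55), Slc5a12 (-7.50), Slc28a3 (-4.88), Slc2a7 (-1.85), Slc2a9 (-1.28) and Slc5a9 (-0.86) likewise remained lower past the threshold. Slc2a2, in contrast, was at 134 ± 22 and 116 ± 20 per 1000 marker counts with overlapping ranges (-0.21, adjusted p = 0.195), Slc2a5 at 49.5 ± 6.7 and 51.3 ± 27.0 (0.05, adjusted p = 0.853), and Slc5a6 at 3.64 ± 0.62 and 3.21 ± 0.75 (-0.18, adjusted p = 0.406). These 3 carriers did not pass the threshold relative to the markers, which themselves fell unequally, and the part of the tissue composition in any of the changes was not tested.

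Control mice differed between the days as well. Of 29 carriers tested, 12 were higher and 5 lower at 7 than at 3 days, beside 19.7% higher and 16.3% lower over 20646 genes. The higher ones were Slc5a12, Slc28a2, Slc2a7, Slc5a11, Slc28a1, Slc2a2, Slc5a1, Slc2a5, Slc5a9, Slc2a9, Slc5a6 and Slc5a10, and the lower ones Slc5a7, Slc2a3, Slc2a4, Slc5a3 and Slc29a1. Slc5a1 was 4.12-fold higher (2.04 ± 0.41, adjusted p = 9.6e-04, edgeR) and Slc28a2 8.09-fold higher (3.02 ± 0.43, adjusted p = 7.7e-05), both without overlap. The call of Slc5a7 (-1.46 ± 0.51) was lost in 4 of 13 fits that left out 1 mouse, control replicates 2 and 3 of day 3 and 1 and 5 of day 7, and its change was -1.25 without the first of these. Slc2a4 fell by 0.88 ± 0.17 on the log2 scale. The summed smooth muscle markers were lower too, with 1629 to 2933 CPM at 3 days and 579 to 1037 CPM at 7 days. This was not particular to muscle. Endothelial markers went from 203 to 356 CPM to 59.0 to 89.6 CPM, and fibroblast markers from 865 to 1591 CPM to 420 to 680 CPM. Enteric nerve markers went from 46.0 to 132 CPM to 22.6 to 41.3 CPM, while the immune sums (1093 to 3129 and 539 to 1294 CPM) overlapped. The epithelial sum rose, and relative to it 7 carriers were higher and 16 lower, beside 197 higher and 17181 lower of the 20646 genes. The part of any marker list in these differences was not tested, and the day and a batch that coincided with it cannot be told apart. The knockout and interaction comparisons use these same control mice. Beside control mice of day 3, mean levels of knockout mice at 7 days were higher for Slc2a2 (359 against 239 CPM) and Slc2a5 (159 against 91.9). They were lower for Slc5a1 (565 against 781), Slc5a6 (9.96 against 13.1), Slc5a9 (8.68 against 11.0), Slc2a9 (12.8 against 23.7) and Slc2a7 (0.431 against 0.725). Ranges overlapped for each of these. Slc28a1, Slc28a3, Slc5a11 and Slc5a12 were lower, with knockout means of at most 0.353 CPM. These differences were not tested.

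The carriers work beside enzymes that release and use sugars and nucleosides, and lists of such genes were read from the same fits. At 3 days, when 1.11% of all genes tested were higher and 0.323% lower, 1 of the 51 genes of these lists passed. It was Hif1a, which encodes a subunit of the oxygen-regulated factor HIF (0.85 ± 0.18, adjusted p = 0.0219, edgeR). At 7 days, when 19.7% of all genes tested were higher and 18.8% lower, all 4 brush-border disaccharidases and glucosidases fell, with a median of -2.56. Lct, which encodes lactase, went from 1094 ± 351 CPM in control to 23.5 ± 16.9 CPM in knockout mice (SD, n = 6 each; -5.52 ± 0.41, adjusted p = 4.8e-09). Treh, encoding trehalase, changed by -3.39 ± 0.21 and Sis, encoding sucrase-isomaltase, by -1.72 ± 0.19. Atp1b1, encoding a beta subunit of the sodium pump, changed by -0.67 ± 0.13 (adjusted p = 3.4e-04).

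Of 13 genes of hexose metabolism, 4 were higher and 6 lower at 7 days, beside 19.7% and 18.8% of all genes tested. G6pc, the glucose-6-phosphatase that releases free glucose, fell from 43.9 ± 14.8 to 2.67 ± 0.85 CPM (-4.00 ± 0.25, adjusted p = 5.4e-10, edgeR), and Slc37a4, the carrier that feeds it, changed by -2.09 ± 0.16. Hk1, encoding a hexokinase, which phosphorylates glucose on entry, rose from 17.1 ± 9.7 to 155 ± 17 CPM (3.23 ± 0.22, adjusted p = 1.4e-09). Of 10 regulators linked to sugar or enterocyte genes, 3 were higher and 5 lower against the same background, among them Hif1a (1.92 ± 0.19), Mlxipl, encoding a glucose-responsive factor (-0.99 ± 0.11), and the intestinal factor Cdx2 (-0.84 ± 0.13). The lactate carriers Slc16a3 (0.67 ± 0.12) and Slc16a1 (0.34 ± 0.12) rose, and Slc50a1 did not pass (-0.09 ± 0.19). Of 19 genes of nucleoside handling, 4 were higher, a share close to the 19.7% of all genes, and 9 lower, beside 18.8% of all genes. Nt5e, the ectoenzyme that makes adenosine from AMP, rose from 14.1 ± 9.8 to 160 ± 15 CPM (3.52 ± 0.33, adjusted p = 8.3e-08), while Dpyd, which degrades pyrimidines, changed by -2.66 ± 0.16 and Tk1, a thymidine kinase of dividing cells, by -1.92 ± 0.13.

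Promoters, as 250 bases before to 50 bases after a transcript start in RefSeq on GRCm38.p6, were at hand for 25 of the 30 genes with 34 starts. They were searched on both strands for TGATGNAA (a form of the ATF4 site), the full HNF1 motif and CAAAGTCCA (HNF4), which 3.97%, 0.399% and 0.475% of all 32851 promoters hold, and 0 of the 34 matched. The shorter words GTTAAT (a part of the HNF1 motif), CACGTG (an E-box) and TATAAA were added after this. GTTAAT was in Slc28a2 and Slc5a10 (7.10% of all promoters), CACGTG in Slc5a1 and Slc29a1 (7.15%), and TATAAA in Slc2a1, Slc29a4 and Slc5a7 (13.6%). The promoters of 2 carriers that rose, Slc2a1 and Slc28a2, and of 3 that fell, Slc5a1, Slc28a1 and Slc5a11, are printed on the plus strand, 5′ to 3′, as examples of both directions, with the matched words in capitals. They lie at chr4:119108495-119108794 for Slc2a1, chr2:122426185-122426484 for Slc28a2, chr5:33103969-33104268 for Slc5a1, chr7:81114549-81114848 for Slc28a1 and chr7:123214616-123214915 for Slc5a11. A match says only that the letters are present.
Slc2a1: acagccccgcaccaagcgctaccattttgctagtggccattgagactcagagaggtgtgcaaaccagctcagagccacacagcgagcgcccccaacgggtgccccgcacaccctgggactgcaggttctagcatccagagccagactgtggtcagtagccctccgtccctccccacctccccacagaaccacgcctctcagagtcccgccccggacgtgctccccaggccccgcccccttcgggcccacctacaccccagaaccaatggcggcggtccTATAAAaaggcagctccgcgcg
Slc28a2: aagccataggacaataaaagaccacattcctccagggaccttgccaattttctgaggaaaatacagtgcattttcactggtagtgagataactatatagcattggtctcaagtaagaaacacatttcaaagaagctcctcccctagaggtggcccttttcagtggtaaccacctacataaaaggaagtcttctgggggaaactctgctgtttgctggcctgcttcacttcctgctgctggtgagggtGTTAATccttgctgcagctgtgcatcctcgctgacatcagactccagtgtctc
Slc5a1: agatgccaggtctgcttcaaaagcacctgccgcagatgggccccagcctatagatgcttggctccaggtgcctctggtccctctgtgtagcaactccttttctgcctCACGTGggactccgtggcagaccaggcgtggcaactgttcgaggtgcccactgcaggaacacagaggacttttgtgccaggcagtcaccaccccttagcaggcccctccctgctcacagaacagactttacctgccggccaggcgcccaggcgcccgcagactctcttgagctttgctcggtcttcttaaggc
Slc28a1: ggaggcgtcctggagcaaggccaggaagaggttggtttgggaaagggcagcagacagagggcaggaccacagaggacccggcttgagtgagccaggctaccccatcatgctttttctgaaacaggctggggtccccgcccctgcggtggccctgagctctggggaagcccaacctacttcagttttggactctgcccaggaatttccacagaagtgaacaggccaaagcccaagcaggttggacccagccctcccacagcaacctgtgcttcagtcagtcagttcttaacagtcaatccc
Slc5a11: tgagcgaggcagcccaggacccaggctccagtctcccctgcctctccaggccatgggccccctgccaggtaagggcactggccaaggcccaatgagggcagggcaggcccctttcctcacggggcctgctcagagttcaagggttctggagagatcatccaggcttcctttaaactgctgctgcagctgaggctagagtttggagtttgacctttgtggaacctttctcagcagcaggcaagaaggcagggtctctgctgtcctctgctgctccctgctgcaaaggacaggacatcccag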

How the data were processed

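QuantSeq 3′ mRNA libraries of 26 mice were analysed from the expected counts per gene that the authors deposited. Per the study's methods, the authors trimmed the reads with cutadapt, aligned them to GRCm38 (Ensembl annotation) and the ERCC sequences with Subread, and counted primary alignments on exons with featureCounts (minimum overlap of 20 bases), dividing reads on several genes into fractions, with no strand option stated. The submitters' processing notes name cutadapt 2.10 and featureCounts 2.0.1. Of the deposited values, 95.0% were whole. The test had been planned for whole counts, so the values were rounded before fitting. A deposited table of CPM equalled counts over library totals and was not used further. Columns without a sample numbered 0.

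Members and lists were chosen with earlier results of these data known. As in the study, a gene was left out of a test where libraries at 0 outnumbered the others in any group compared. Tests used edgeR 4.0.16 under R 4.3.3 (quasi-likelihood, TMM, Benjamini-Hochberg adjusted p under 0.05 over all genes tested), in 1 fit per comparison. SE is the log2 fold change over the square root of F. Members were named with values if called in any comparison, and from each list of 51 pathway genes in all at most the 3 largest changes with a mean of at least 50 counts. Alternatives were DESeq2 1.42.0 (Wald test or size factors), library totals, other filters, the replicate block, all libraries in 1 fit and mice left out in turn. Those without libraries over 10000 CPM of stomach or pancreatic markers and with epithelial markers as library size were chosen after seeing the data. The script was tested on simulated data. Within groups, 0 pairs of libraries were identical. Gene positions came from GENCODE on GRCm38. The check of the targeted gene and the result for 1 listed gene are not reported here.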

Additional observations from a re-analysis of the deposited data

Results flagged for a closer look

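In 84 groups of 6 or 7 mice with a mean of at least 10 counts, 10 values, from 5 mice, stood apart by Dixon's criterion at the 95% level, where chance alone gives about 1 in 20, or 4.2. Slc2a10 stood high in the 3 libraries rich in stomach markers, at 32.5 CPM in control replicate 5 and 17.7 CPM in knockout replicate 1 of day 3 and at 16.7 CPM in control replicate 2 of day 7. Control replicate 5 of day 3 was also high for Slc2a8 (15.9 CPM), and knockout replicate 1 of day 3 was high for Slc29a1 (35.5 CPM) and low for Slc5a6 (5.05 CPM). Control replicate 2 of day 7 had 15.0 CPM of Slc2a1. Control replicate 5 of day 7 was high for Slc5a10 (4.43 CPM) and Slc5a6 (30.1 CPM), and control replicate 4 of day 3 for Slc28a2 (14.0 CPM).

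The effect of the knockout differed between the days by the interaction test (edgeR, adjusted p under 0.05) for 12 carriers. The difference, 7 days minus 3 days on the log2 scale, was 1.62 for Slc2a1, 1.24 for Slc5a3 and 1.17 for Slc2a12. It was -8.66 for Slc5a12, -7.50 for Slc5a11, -6.49 for Slc28a1, -5.36 for Slc28a3, -3.29 for Slc2a7, -2.61 for Slc5a1, -2.25 for Slc2a5, -1.79 for Slc5a9 and -1.66 for Slc2a9. The 4 largest falls rest on few counts in knockout mice at 7 days and depend on the prior count of the fit.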

How the results depend on the processing

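At 3 days the count of carriers past the threshold moved from 1 to 0 with library totals alone, with no filter on low counts, with the replicate block and with epithelial markers as library size, to 3 with the Wald test of DESeq2, with all 26 libraries in 1 fit and without the libraries rich in stomach or pancreatic markers, and to 4 without those rich in stomach markers. Leaving out 1 mouse at a time gave 0 to 4 at 3 days (4 without knockout replicate 1), 14 to 18 at 7 days, 11 to 14 for the interaction and 16 to 18 between control mice. It added calls for Slc2a13 (-1.40) and Slc29a3 (-0.41) at 7 days without knockout replicate 4, and for Slc29a3 at 3 days also without control replicate 1 (-0.62). Between control mice it added Slc2a10 without control replicate 5 of day 3 (0.98). Slc29a3 was added there without control replicate 1 of day 3 (-0.45) or replicate 2 of day 7 (-0.49). In the interaction it added Slc2a10 without control replicate 5 of day 3 (-1.21). Slc2a2 (-1.51) and Slc5a6 (-1.07) were added there without knockout replicate 1 of day 3, and Slc5a6 also without 3 further mice. Over the other alternatives the count of carriers lay between 13 and 18 at 7 days, 10 and 14 for the interaction and 16 and 23 between control mice. With epithelial markers as library size, Slc2a5 at 7 days turned from -0.82 to 0.054, and between control mice Slc5a10 turned from 0.95 to -0.49 and Slc5a6 from 1.05 to -0.39. Over all genes, calls at 3 days went from 297 to 99 with the replicate block, 70 with epithelial markers, 786 with DESeq2, 810 with all libraries in 1 fit and 774 without the stomach-rich libraries, and 171 (without knockout replicate 4) to 779 (without knockout replicate 1) with 1 mouse left out. With epithelial markers they went from 7790 to 12462 at 7 days, from 3603 to 5535 in the interaction and from 7441 to 17378 between control mice. Library totals alone moved the median of all genes between control mice by -0.36. There 11 carriers were higher and 6 lower, beside 1977 higher and 7372 lower over all genes. The labels do not say whether the replicate numbers pair the mice. The correlations of same-numbered mice ran from -0.35 to 0.43 and cannot decide it, since libraries also differed in stomach and pancreatic transcripts. In the fit with the replicate block, 16 carriers passed at 7 days, 12 in the interaction and 16 between control mice, and Slc2a1 at 3 days had a change of 0.74 (adjusted p = 0.168, edgeR). In the interaction and between control mice, the block joined same-numbered mice of different days. The labels do not link these mice, so those counts cannot decide a pairing. Values of carriers below 1 CPM rest on few counts.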

Other observations

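Some carriers with little or no test stood out in single libraries. Slc5a5, which encodes the iodide carrier known from thyroid and gastric mucosa, had 3.76 CPM in control replicate 5 of day 3 and 3.69 CPM in control replicate 2 of day 7, the 2 control libraries with over 10000 CPM of stomach markers, and at most 0.887 CPM in all others. Knockout replicate 1 of day 3, also rich in stomach markers, had 0.841 CPM. Slc5a8, which had 0 counts in most libraries, had 37 counts (6.33 CPM) in control replicate 3 of day 7 and at most 2 counts in any other. In the same mouse Slc5a1 (3809 CPM), Slc28a2 (51.8 CPM) and the epithelial marker sum (6978 CPM) had the highest values of their group. This did not hold for all carriers. Slc2a2 (683 CPM) and Slc5a12 (255 CPM) were not the highest, and Slc5a3 (10.1 CPM) was the lowest of the group. What these libraries share beyond their marker levels was not tested.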
